A study of Homo sapiens with 4 samples.

Results

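The HOX genes encode homeodomain transcription factors that give cells along the body axis their regional identity. In human they lie in 4 clusters, HOXA on chromosome 7, HOXB on chromosome 17, HOXC on chromosome 12 and HOXD on chromosome 2, with 39 genes in all. Within a cluster the genes stand in the order of their paralog numbers, and genes of low number are switched on earlier and closer to the head than genes of high number. In many adult cells parts of the clusters are held silent by Polycomb proteins, and distant enhancers for HOXA and HOXD lie in the stretches beside them. H3K4me1, histone H3 monomethylated at lysine 4, marks enhancers and the edges of active promoters. LSD2, the product of KDM1B, is a demethylase that acts on methylated H3K4.

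The peaks described here are regions in which H3K4me1 ChIP reads of 1 library from HepG2 cells given an siRNA against LSD2 exceeded those of 1 library from HepG2 cells given the control siRNA. HepG2 is a human liver tumour line, and all cells were grown in high glucose medium. Each condition also had 1 input library, which makes 4 samples, and neither input is named in the peak call. No condition was replicated, the extent of the knockdown is not given in the sources used here, and the identity of the cells could not be checked from peak positions. Every value therefore describes 1 pair of libraries, and no test between the conditions was made.

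Members were chosen by position alone, as the distinct peaks that overlap 1 of 4 windows on hg19, each a HOX cluster with 100 kb added on both sides. Of the 160601 distinct peaks in the list, 84 did so, or 0.0523%. They covered 30.6 kb of the 1360 kb in the windows. The HOXA window held 15 peaks, the HOXB window 23, the HOXC window 17 and the HOXD window 29. Each window was divided into the core, which is the cluster itself, and 2 flanks of 100 kb. The core measured 120 kb for HOXA, 210 kb for HOXB, 120 kb for HOXC and 110 kb for HOXD. Surroundings are the 1 Mb beyond the window on each side, and "low" and "high" name the sides with lower and higher coordinates.

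No annotation of hg19 was used here, so a peak is not assigned to a gene. The order of the genes along the chromosome, from RefSeq on GRCh38.p14, was used without its coordinates. By that order HOXB runs from paralog 1 on the low side to paralog 13 on the high side, and HOXC and HOXD run the other way. Beyond the low end of HOXA lies SKAP2, and beyond its high end EVX1, itself a homeobox gene. HOXB lies between SKAP1 and TTLL6, with PRAC1 and PRAC2 between HOXB9 and HOXB13. HOXC lies between CALCOCO1 and SMUG1, which encodes a DNA repair glycosylase. On chromosome 2, EVX2 stands next to HOXD13 and MTX2 lies beyond HOXD1.

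All 4 clusters held peaks called as higher after LSD2 knockdown, inside the core and in both flanks. Few stretches of the autosomes held no peak, 2.48% of those of 100 kb and 0.53 to 1.84% of those as long as a core. Holding a peak therefore does not set the clusters apart. The cores together held 42 peaks and the flanks another 42, although the flanks were longer by far, 800 kb against 560 kb. The most of a core that a single peak-free stretch took up was 25.4% in HOXA, 22.8% in HOXC, 20.5% in HOXD and 19.6% in HOXB. The widest peak lay in HOXA, the densest stretch in the high flank of HOXD, and the lowest peak densities in the high flank of HOXB and the low flank of HOXC.

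**Figure D1:**
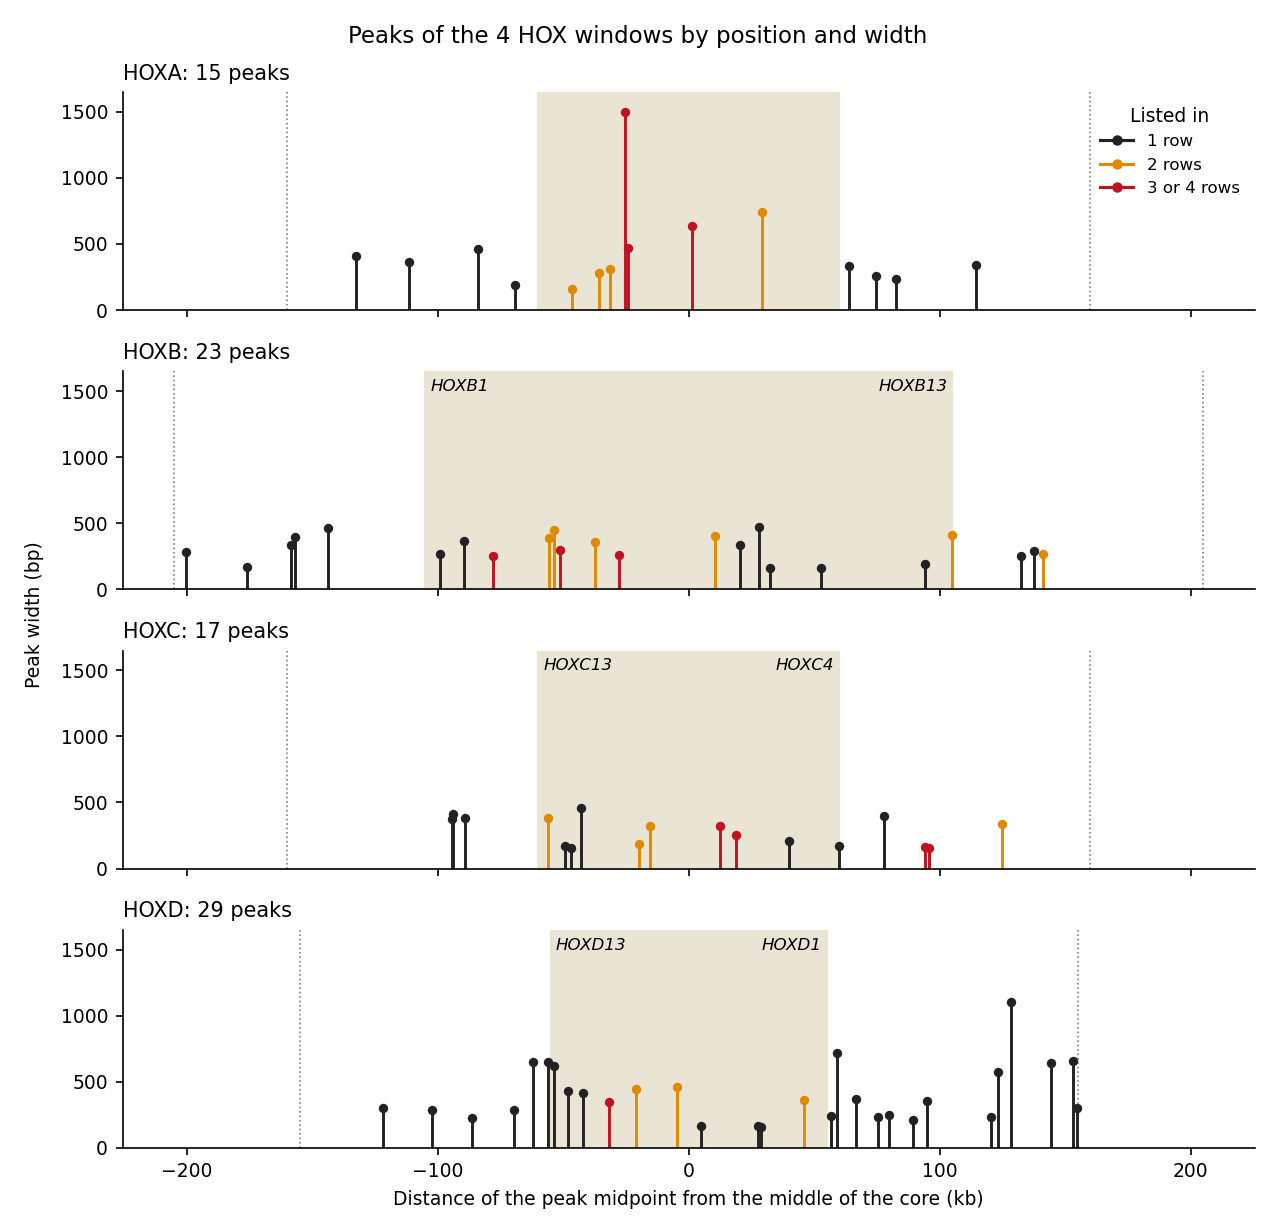
Each stem is 1 peak, placed by the distance of its midpoint from the middle of the core in kb, with its width in bp as the height. Colour gives the number of deposited rows that list it, shading marks the core, and dotted lines mark the ends of the window; the gene names, given for HOXB, HOXC and HOXD, say only which gene stands at that end of the cluster by order. The 1497 bp peak of HOXA and the wide peaks of the high HOXD flank stand above the others, and the coloured stems lie mostly within the shaded cores.

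HOXA carried the fewest peaks and the widest one. Its core held 7 peaks, of which 6 are described here. One of 278 bp ran from 27153991 to 27154268 on chromosome 7. Another, from 27158431 to 27158744, was 314 bp wide. These narrow peaks were followed by the widest of all 84. It spanned 1497 bp from 27163994 to 27165490, and ranked 200 by width in the whole list, in which 0.125% of peaks were at least as wide. Only 258 bp beyond it, a further peak of 470 bp ran from 27165749 to 27166218. In the middle of the core a peak of 634 bp ran from 27190905 to 27191538. The last core peak, of 745 bp, ran from 27218741 to 27219485. Covered bases made up 3.42% of the HOXA core, against 1.30% of its flanks and 2.63% of its surroundings.

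The HOXA flanks held 4 peaks on each side, all narrower than 500 bp and spaced widely. The 2 widest, of 464 bp (27105681 to 27106144) and 412 bp (27057157 to 27057568), both lay on the low side, the side of SKAP2. From the last core peak to the first peak of the high flank there was a stretch of 34.3 kb without a peak, the longest that touched the HOXA core. Of all gaps between neighbouring peaks in the list, 14.0% were at least as long. The stretch was picked as the longest of 8, so that share does not show it to be unusual.

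HOXB, the longest core, held 15 peaks, with 8 on the side towards HOXB1 and 7 on the side towards HOXB13. On the HOXB1 side the first peak, of 265 bp, ran from 46605745 to 46606009 on chromosome 17. A peak of 365 bp followed from 46615509 to 46615873. Another, from 46627045 to 46627293, was 249 bp wide and was listed in 4 rows. The next 3 peaks stood close together within 5 kb. They ran from 46649265 to 46649650 (386 bp), from 46651241 to 46651691 (451 bp) and from 46653685 to 46653978 (294 bp). No other 3 consecutive peaks of a core fitted into so short a span. Beyond it, a peak of 360 bp ran from 46667332 to 46667691. The last of this side, from 46676955 to 46677212, was 258 bp wide and was again listed in 4 rows.

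On the HOXB13 side a peak-free stretch of 38.1 kb came first, crossing the middle of the core. A peak of 400 bp then ran from 46715345 to 46715744. It was followed by one of 334 bp from 46725318 to 46725651. The widest peak of the HOXB core, 468 bp, ran from 46732625 to 46733092. After it the peaks became narrow and sparse. One of 164 bp ran from 46737165 to 46737328. A second, the narrowest of the core at 158 bp, ran from 46757577 to 46757734. No peak lay in the 41.2 kb after it. Then came a peak of 189 bp from 46798897 to 46799085. The last, of 413 bp from 46809607 to 46810019, crossed the high end of the core and was counted there.

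No HOXB peak was wider than 468 bp, and the HOXB window had the lowest median width of the 4, 294 bp. Its flanks held 5 peaks on the low side and 3 on the high side. The 2 widest, of 462 bp (46561282 to 46561743) and 393 bp (46547995 to 46548387), lay on the low side, the side of SKAP1. Between the former and the first core peak lay 44.0 kb without a peak, the longest stretch touching any of the 4 cores. At least as long were 8.96% of all gaps in the list, and 7.05% of those on chromosome 17. The stretch was picked as the longest of 15 that touched the HOXB core, so these shares do not show it to be unusual.

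HOXC had the narrowest core peaks. Median width was 230.5 bp over its 10 peaks, compared with 470 bp for the 7 of HOXA, 334 bp for the 15 of HOXB and 388.5 bp for the 10 of HOXD. On the side towards HOXC13 there were 6 peaks. At the HOXC13 end a peak of 381 bp ran from 54333767 to 54334147 on chromosome 12. A pair of narrow peaks came next, of 169 bp from 54340760 to 54340928 and of 159 bp from 54342909 to 54343067. The widest peak of the HOXC window, 455 bp, ran from 54347008 to 54347462. Beyond a gap of 22.5 kb followed a peak of 183 bp from 54370008 to 54370190. The sixth, of 323 bp, ran from 54374524 to 54374846. The side towards HOXC4 held 4 peaks, after a gap of 27.3 kb. One of 323 bp ran from 54402155 to 54402477. Its neighbour from 54408748 to 54408998 measured 251 bp and was listed in 4 rows. Then came peaks of 210 bp from 54430032 to 54430241 and of 171 bp from 54449825 to 54449995, the latter at the very end of the core.

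Of the 17 peaks in the HOXC window 6, or 35.3%, were narrower than 200 bp, against 17.0% of the whole list. The shares in the HOXA, HOXB and HOXD windows were 13.3%, 17.4% and 10.3%. Over the 4 windows together it was 15 of 84, or 17.9%. HOXC was picked as the highest of the 4, so its share does not show it to be unusual. The flanks of HOXC held 3 peaks on the low side, all within 6 kb of each other, and 4 on the high side. The 2 widest were of 413 bp on the low side, the side of CALCOCO1 (54295928 to 54296340), and of 397 bp on the high side (54467629 to 54468025). HOXC had the lowest covered share of the 4 windows, 1.51%.

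HOXD carried the most peaks. Its core held 10, with 6 on the side towards HOXD13 and 4 on the side towards HOXD1. At the HOXD13 end a peak of 617 bp ran from 176950935 to 176951551 on chromosome 2. After it came one of 431 bp from 176956588 to 176957018. Another, of 414 bp, ran from 176962530 to 176962943. These continued a row of wide peaks from the adjoining flank, where the last 2 before the core measured 650 bp (176942749 to 176943398) and 647 bp (176948494 to 176949140). These 2 are named because their widths stood out once seen. Farther into the core a peak of 345 bp, listed in 3 rows, ran from 176972957 to 176973301. A peak of 448 bp followed from 176983643 to 176984090. The sixth, of 463 bp, ran from 177000013 to 177000475. Towards HOXD1 the peaks were narrower. The first of that side measured 169 bp from 177009878 to 177010046. A close pair then measured 164 bp (177032566 to 177032729) and 161 bp (177033635 to 177033795). The last core peak, of 363 bp, ran from 177050886 to 177051248. Median width was 439.5 bp on the HOXD13 side and 166.5 bp on the HOXD1 side, and the widest of the HOXD1 side exceeded the narrowest of the other by little.

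The high flank of HOXD, on the side of HOXD1 and MTX2, was the densest stretch of the 4 windows. It held 13 peaks in 100 kb, and peaks covered 5.88% of it. The low flank held 6 peaks and was covered to 2.39%. In the high flank lay the only other peak of 1 kb or more among the 84, of 1105 bp from 177132764 to 177133868. The second widest of the HOXD flanks, of 716 bp from 177063614 to 177064329, lay there too, close to the core. Among 26953 stretches of 100 kb tiled over the autosomes the median was 5 peaks (quartiles 3 and 8), and 4.50% held 13 or more. On chromosome 2 itself the median was 7, and 8.62% held 13 or more. This flank was picked as the densest, so these shares do not measure how unusual it is. For the other flanks, with 3 to 6 peaks, 47.8 to 84.3% of the autosome stretches held at least as many. The ratio of the high to the low flank was 2.17, with an exact 95% interval of 0.768 to 6.95 that includes 1. All intervals here reflect the number of peaks alone, as if each peak were independent of the next.

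Peaks were split evenly by paralog number when the clusters were added up. Over the 4 cores the sides towards the low paralog numbers held 21 peaks in 280 kb, and those towards the high numbers held 21 as well. HOXB had more on the low-number side, by 8 to 7. HOXC and HOXD had fewer there, by 4 to 6 in each. The Poisson intervals of the 2 sides overlapped in each of these 3 clusters. Among peaks at or above the median width of the list, the ratio of the low-number to the high-number sides was 0.533 in place of 1, a count added after the values were seen.

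**Figure D2:**
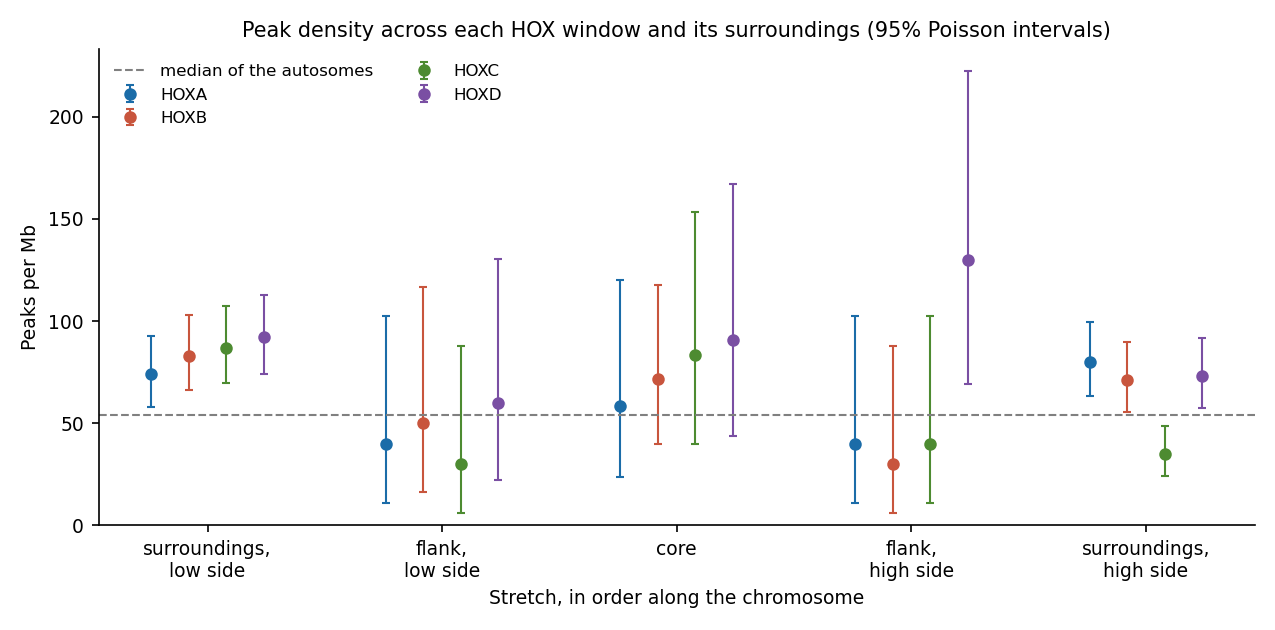
Peaks per Mb (y axis) in 5 consecutive stretches of each cluster (x axis, in chromosome order), with exact 95% Poisson intervals for counting error; the dashed line is the autosome median of 54.0. Points of HOXA and HOXB dip in both flanks and those of HOXC in the low flank, while HOXD has its highest point, 130 peaks per Mb, in the high flank, and the high surroundings of HOXC stand lowest among the surroundings.

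Between the clusters, the HOXD window was the densest and the HOXA window the sparsest. The HOXD window held 93.5 peaks per Mb (exact 95% Poisson interval 62.7 to 134). HOXB followed with 56.1 (35.6 to 84.2), then HOXC with 53.1 (30.9 to 85.1) and HOXA with 46.9 (26.2 to 77.3). HOXD was 2.0-fold denser than HOXA, with an exact interval of 1.04 to 4.01. Of the 6 pairs of windows compared, this was the 1 whose interval left out 1, and the intervals are not adjusted for the 6 comparisons. Among the peaks at or above the median width of the list the ratio was 1.84, and its interval of 0.764 to 4.71 included 1. HOXD against HOXC gave 1.76 (0.936 to 3.42) and HOXD against HOXB 1.67 (0.932 to 3.02). The other 3 ratios lay between 1.06 and 1.20, with wide intervals, so these windows could differ by up to 2.47-fold without showing it here. By covered bases HOXD also came first, at 3.82% of its window, ahead of HOXA at 2.09%, HOXB at 1.76% and HOXC at 1.51%. HOXA thus stood last by number of peaks and second by covered bases.

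By peaks per Mb HOXD led both in the cores and in the flanks. By number the longer HOXB core, with 15 peaks, held more than the HOXD core, with 10. By covered bases the HOXA core, at 3.42%, came before the HOXD core, at 3.25%. Core density ran from 58.3 peaks per Mb in HOXA (23.5 to 120) through 71.4 in HOXB (39.98 to 118) and 83.3 in HOXC (39.96 to 153) to 90.9 in HOXD (43.6 to 167). All 6 intervals of the pairwise core ratios included 1. Flank density was 95 in HOXD (57.2 to 148), against 40.0 in HOXA and in HOXB (17.3 to 78.8 each) and 35.0 in HOXC (14.1 to 72.1). HOXD flanks exceeded those of HOXC 2.71-fold (1.09 to 7.64), or 1.8-fold among the wider peaks alone (0.542 to 6.84), and those of HOXA and HOXB 2.38-fold each (0.993 to 6.27).

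Chromosome 2 had the highest peak density of the autosomes, 76.4 per Mb, against 64.6 on chromosome 17, 57.0 on chromosome 12 and 53.5 on chromosome 7. Its part in the difference between the clusters was not tested. Among stretches as long as the HOXD window, 10.7% of those on the autosomes held 29 peaks or more, and 23.7% of those on chromosome 2 did. The HOXA window, with 15 peaks, stood below the median of 18 for stretches of its length over the autosomes and near the median of 16 on chromosome 7. HOXB, with 23, equalled the autosome median of 23 and was below the median of 26 on chromosome 17. HOXC, with 17, was near the medians of 18 and 17.

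Against their own surroundings, the 4 windows together were not denser. They held 61.8 peaks per Mb (49.3 to 76.5), and the surroundings 74.4 (68.5 to 80.6), a ratio of 0.830 (0.653 to 1.05). By cluster the ratio was 0.609 for HOXA (0.333 to 1.04), 0.729 for HOXB (0.448 to 1.13), 0.871 for HOXC (0.491 to 1.45) and 1.13 for HOXD (0.736 to 1.69). Each of these intervals includes 1. Surroundings held 77.0 peaks per Mb for HOXA and for HOXB, 82.5 for HOXD and 61.0 for HOXC. HOXC lay on a step: the 1 Mb on its low side held 87 peaks and the 1 Mb on its high side 35, a ratio of high to low of 0.402 (0.264 to 0.602). Its window therefore stood at 0.611 of the low side and at 1.52 times the high side, a comparison added after the step was seen.

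**Figure D3:**
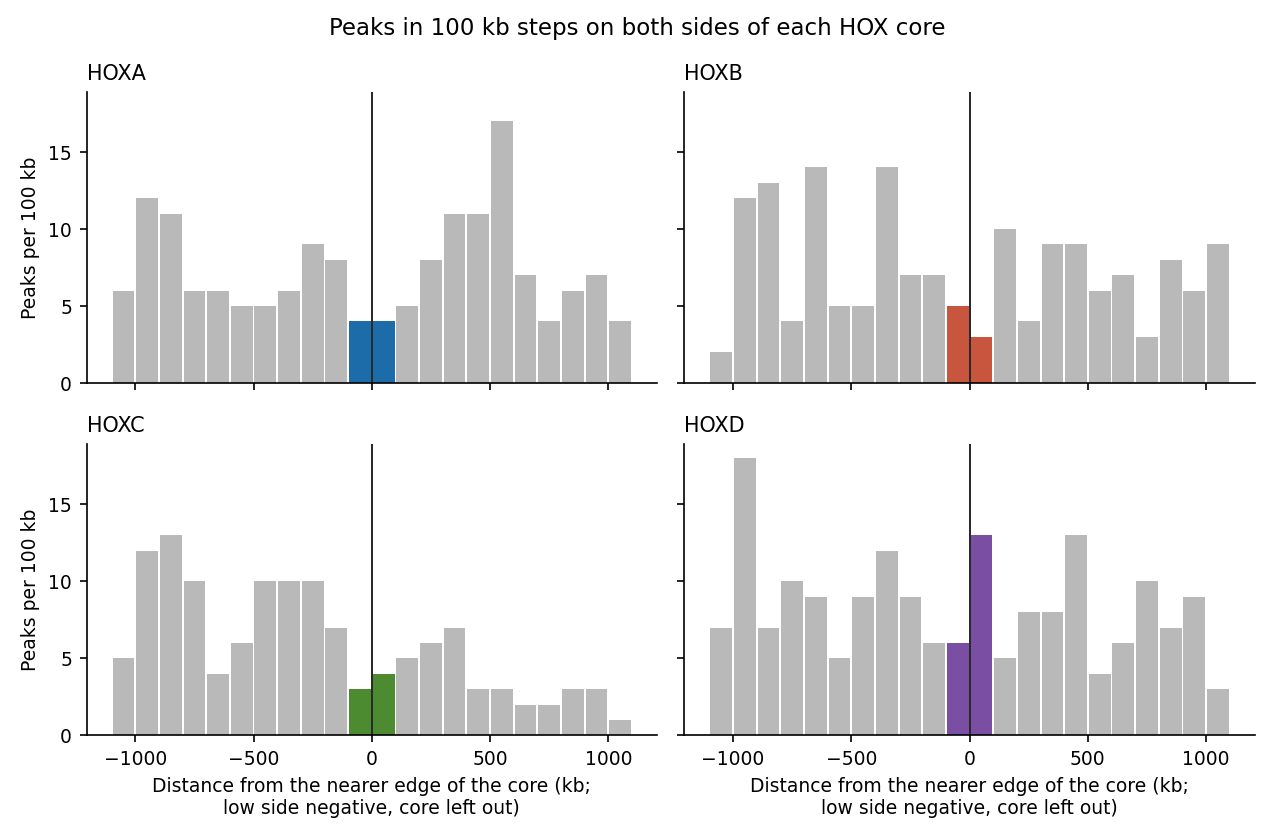
Peaks per 100 kb (y axis) by distance from the nearer edge of the core in kb (x axis, low side negative), with the flanks coloured and the core left out. Counts in the coloured flanks are 3 to 5 peaks for HOXA, HOXB and HOXC and 6 and 13 for HOXD, and the steps on the high side of HOXC fall to between 1 and 7.

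The flanks were the sparser part of the windows. Over the 4 clusters, flank density was 52.5 peaks per Mb (37.8 to 71.0), close to the autosome median of 54.0. The flanks were thus sparse beside their surroundings and not beside the autosomes. Their density was 0.706 of that of the surroundings (0.503 to 0.966), a comparison chosen after the values were seen. With peaks less than 1 kb apart merged the ratio was 0.796 (0.565 to 1.10), and with the wider peaks alone 0.717 (0.443 to 1.10), so that both intervals took in 1. HOXA, HOXB and HOXC each showed it, with ratios of 0.519, 0.519 and 0.574, and HOXD did not, at 1.15. Taken singly, all 4 intervals include 1, that of HOXA and HOXB reaching 1.05 and that of HOXC 1.22. In steps of 100 kb, flanks of HOXA, HOXB and HOXC held 3 to 5 peaks each, where the median step of their surroundings held 6 to 10, apart from the high side of HOXC, whose median was 3. Stretches of 100 kb tiled over the autosomes had a median of 5 (quartiles 3 and 8), so these flank counts were ordinary. Core density, 75 peaks per Mb (54.05 to 101), was close to that of the surroundings, at a ratio of 1.01 (0.719 to 1.38).

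**Figure D4:**
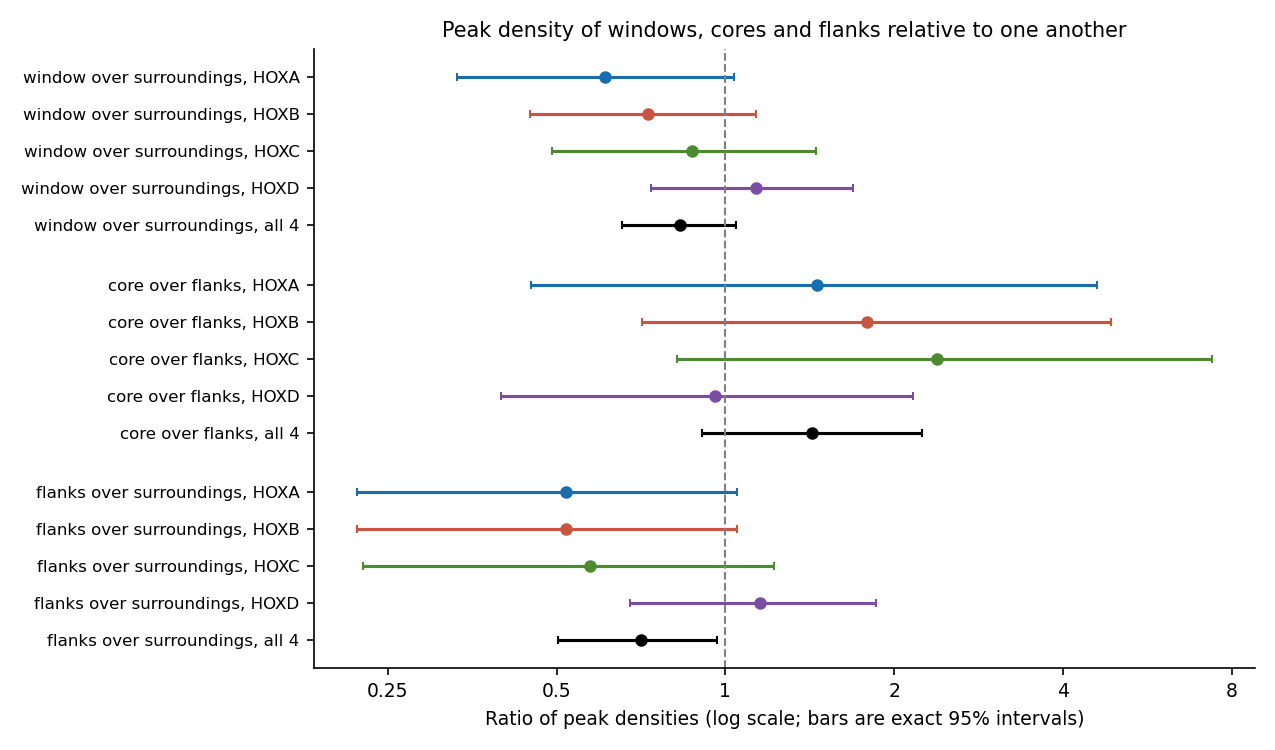
Ratios of peak density (x axis, log scale) with exact 95% intervals, for each cluster and for all 4, with the dashed line at 1. Most intervals cross the line; the flanks of all 4 clusters against their surroundings, at 0.706, do not.

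Core against flank, the same data gave 1.43 over the 4 clusters (0.909 to 2.25). The ratio was 1.46 for HOXA (0.450 to 4.60), 1.79 for HOXB (0.711 to 4.86), 2.38 for HOXC (0.818 to 7.37) and 0.957 for HOXD (0.397 to 2.16). The core was also widened by 50 kb on each side, so that the outermost 50 kb of each side were left as flanks. For HOXC the ratio was then 7.27, still inside the interval of 0.818 to 7.37. Its flanks then held only the peak from 54514697 to 54515032. For HOXD the same widening of the core gave 1.5, on the other side of 1 and inside the interval of 0.397 to 2.16.

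Pooled over the 4 clusters, a smaller share of the window peaks than of those around them had a close neighbour, though not at HOXC. Another peak lay within 5 kb of 37 of the 84, or 44.0% (95% Wilson interval 33.9 to 54.7%), against 373 of the 595 in the surroundings, or 62.7% (58.7 to 66.5%), and 52.2% in the whole list. The contrast was widest at HOXA, with 4 of 15 (26.7%, 10.9 to 52.0%) against 104 of 154 (67.5%, 59.8 to 74.4%). At HOXC the window had 10 of 17 (58.8%, 36.0 to 78.4%) and the surroundings 53.3% (44.5 to 61.9%). HOXB and HOXD lay between, at 43.5% (25.6 to 63.2%) and 44.8% (28.4 to 62.5%) against 64.3% (56.5 to 71.4%) and 63.6% (56.1 to 70.6%). In both, the intervals of window and surroundings overlapped. The flanks of HOXA held no peak with another within 5 kb. A lower density by itself lowers this share, and its part was not tested.

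The longest peak-free stretch that touched the HOXC core measured 32.6 kb and that of HOXD 22.5 kb, next to the 34.3 kb of HOXA and 44.0 kb of HOXB given above. Those of HOXB and HOXC lay mostly in the low flank, with 2.74% and 3.14% of the core in them. The longest that lay wholly inside the core was 41.2 kb in HOXB and 27.3 kb in HOXC. Of all gaps in the list, 15.2% were at least as long as the 32.6 kb stretch of HOXC and 25.1% at least as long as the 22.5 kb stretch of HOXD. Both were picked as the longest of 11 touching their core, so the shares do not show them to be unusual. Median gap within the window was 17.6 kb for HOXA, 10.8 kb for HOXB, 11.3 kb for HOXC and 8.18 kb for HOXD, against 10.1 kb in the list.

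Peak width in the windows was close to that of the rest. The 84 peaks had a median of 331.5 bp (quartiles 240.5 and 413 bp), the surroundings 325 bp (242.5 and 410 bp) and the list 316 bp (229 and 396 bp). Both peaks of 1 kb or more have been named, and they make 2 of 84, against 0.899% of the list. Flanks and cores had nearly the same median, 331.5 and 328.5 bp, and cores the lower first quartile, 194 bp against 250 bp.

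Listing in several rows was more frequent in the cores. The deposited table repeats some peaks in rows with the same start and end, and its header does not say what a repeat stands for. In the cores 24 of 42 peaks were listed more than once, or 57.1% (95% Wilson interval 42.2 to 70.9%). In the flanks 4 of 42 were, or 9.52% (3.77 to 22.1%), in the surroundings 107 of 595, or 18.0% (15.1 to 21.3%), and in the list 10.7%. Of the core peaks 9, or 21.4%, had 3 or more rows, against 4.76% in the flanks, 3.03% in the surroundings and 1.36% of the list. At HOXC 2 of 10 core peaks and 2 of 7 flank peaks did. The share listed more than once also differed between chromosomes, at 9.58% on chromosome 7, 17.7% on 17, 14.3% on 12 and 8.85% on 2.

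By cluster, the intervals of core and surroundings did not overlap in HOXA and HOXD, and overlapped in HOXB and HOXC. All 7 HOXA core peaks were repeated (64.6 to 100%), none of the 8 in its flanks (0 to 32.4%) and 4.55% of those in its surroundings (2.22 to 9.08%). In the HOXD core 4 of 10 were repeated (40.0%, 16.8 to 68.7%), in its flanks none of 19 (0 to 16.8%), and in its surroundings 5.45% (2.90 to 10.0%). For HOXB the shares were 8 of 15 in the core (53.3%, 30.1 to 75.2%), 1 of 8 in the flanks and 26.0% in the surroundings (19.7 to 33.4%). For HOXC they were 5 of 10 (50.0%, 23.7 to 76.3%), 3 of 7 and 41.8% (33.4 to 50.7%), so that its core did not stand apart from its surroundings at this number of peaks. Within HOXB more of the repeats lay towards HOXB1, with 6 of 8 peaks on that side and 2 of 7 on the side towards HOXB13. HOXC and HOXD did not share this. In HOXC 3 of 6 were repeated towards HOXC13 and 2 of 4 towards HOXC4, and in HOXD 3 of 6 towards HOXD13 and 1 of 4 towards HOXD1.

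**Figure D5:**
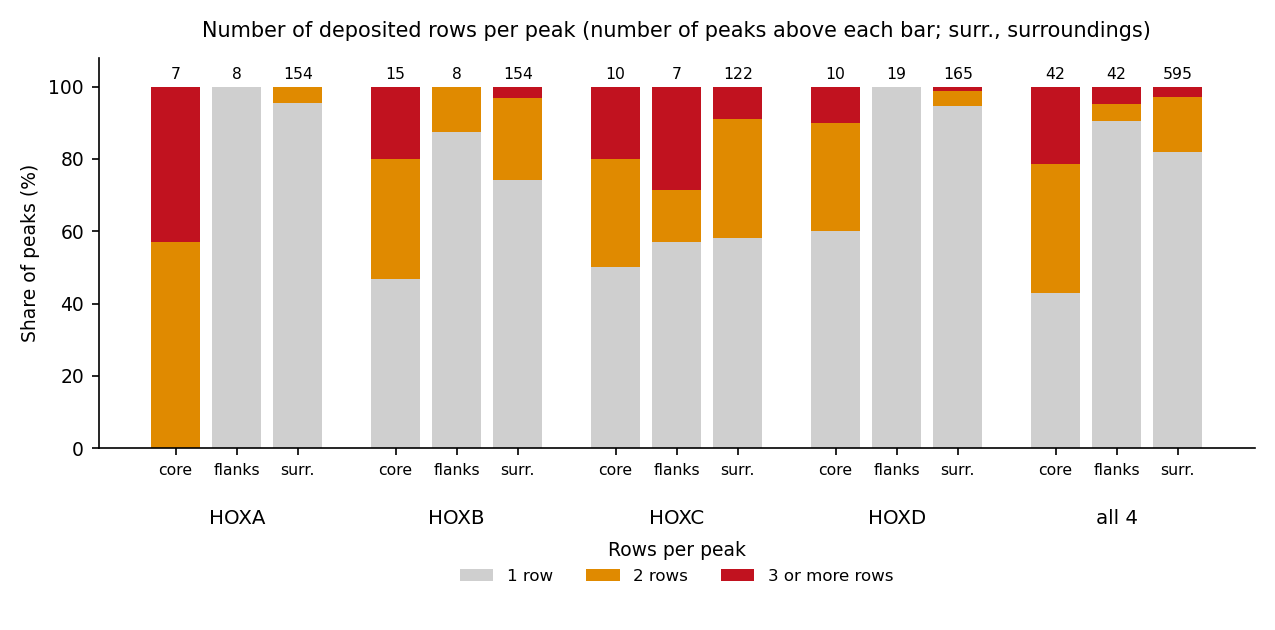
Share of peaks in percent (y axis) listed in 1, 2 or 3 or more rows, by cluster and by core, flanks and surroundings (x axis), with the number of peaks above each bar. All 7 HOXA core peaks are repeated and none of the 8 in its flanks, and over the 4 clusters the repeated share is 57.1% in cores and 9.52% in flanks.

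Pooled over the cores, the repeated peaks had the larger median width. The 24 repeated core peaks had a median width of 361.5 bp (quartiles 290 and 449 bp), and the 18 listed once 199.5 bp (165 and 402 bp). The widths of both kinds overlapped, from 162 to 1497 bp and from 158 to 617 bp. Over the whole list the medians were 332 and 314 bp. In the flanks the 4 repeated peaks, 3 of them on the high side of HOXC, had a median of 215.5 bp and the 38 others 337 bp. The difference between cores and flanks in this respect was not tested.

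Membership turned on the window limits for few peaks. The nearest peak inside the low limit lay 27.2 kb from it for HOXA, 4.82 kb for HOXB, 65.4 kb for HOXC and 32.9 kb for HOXD, with widths of 412, 282, 372 and 300 bp. The nearest outside lay 2.20, 18.9, 18.2 and 6.09 kb away and measured 215, 171, 175 and 172 bp. At the high limit the last peak inside stood 45.2 kb away for HOXA, 63.9 kb for HOXB and 35.0 kb for HOXC, and for HOXD it crossed the limit by 4 bp. Those just outside the high limit lay 11.3, 12.4, 9.85 and 16.3 kb away, at widths of 308, 242, 186 and 347 bp.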

How the data were processed

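One peak list was used. The authors ran MACS, per the file header, on trimmed reads without duplicates, with the LSD2 siRNA H3K4me1 library as treatment and the control (GL3) siRNA H3K4me1 library as control, a read and a fragment length of 128 bp, a p-value cutoff of 1e-05 and an enrichment factor of 32. The submitters' processing notes name BWA and hg19. The deposited columns are chromosome, start and end, without a score, and regions higher in the control library are not analysed here. No source used here gives the read totals. Depth is thus unknown, and a peak-free stretch may be one that is unchanged, lowered or thinly covered.

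The 180505 rows were reduced to 160601 distinct peaks, with positions counted from 1. A peak belonged where it overlapped by at least 1 base. Peaks over a limit went to the core first, then the flank. Densities carry exact Poisson intervals, ratios exact conditional binomial intervals and shares Wilson intervals, all at 95% (Python 3.11.15, SciPy 1.17.1). Equal stretches were tiled over the autosomes, leaving out those inside peak-free gaps over 1 Mb. Every core peak and the 2 widest flank peaks per cluster were named, except for 1 HOXA core peak that is counted but not described. The ratio interval was checked on simulated counts, and overlap, merging and gaps on a small made-up layout. Independence was built into those counts, so the check does not show that the intervals hold for these peaks. Comparisons of repeated rows, of neighbours and of flanks with surroundings were added after the values were seen. Members, windows and lists were chosen with earlier results of these data known. Alternatives covered rows, merging within 1 kb, width, midpoints, covered bases, cores widened by 50 kb on each side and surroundings of other size. A result on position along the HOXA cluster is not reported here.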

Additional observations from a re-analysis of the deposited data

How the results depend on the processing

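Over 155 alternative values, 135 stayed within the interval of the reported ratio, within 1 SD for widths, or within 1.5-fold for counts, covered shares and peak-free stretches, or, for the 4 ratios whose reported interval left out 1, kept that interval off 1 where one was computed. Those 4 were recomputed after the data were seen. With the wider peaks alone the interval took in 1 for flanks over surroundings (0.717), HOXD over HOXA windows (1.84) and HOXD over HOXC flanks (1.8), as it did for flanks over surroundings with close peaks merged (0.796). None of the 4 changed direction. For window over surroundings, core over flanks and position along the cores the reported intervals all included 1, so a change of direction there is within counting error. Keeping peaks at or above the list's median width left 9 peaks in the HOXA window, 11 in HOXB, 9 in HOXC, 16 in HOXD and 45 in all, by construction. That setting also gave HOXB a covered share of 1.06% and a median width of 393 bp, and lengthened the longest peak-free stretch to 57.8 kb for HOXA, 76.5 kb for HOXB, 65.2 kb for HOXC and 50.4 kb for HOXD. Counting every row gave 25 for HOXA, 37 for HOXB and 30 for HOXC and raised the core to flank ratio over all clusters to 2.32, since core peaks had more rows. By rows the HOXA core to flank ratio was 3.54. The HOXC window stood at 1.52 times its high surroundings alone, a setting chosen after seeing the data, as were the low side alone and both settings for position along the cores. For the latter, the ratio of peaks towards low to peaks towards high paralog numbers was 1.36 by rows and 0.533 for the wider peaks, against 1. Window over surroundings for all 4 clusters ranged from 0.735 to 1.03, so that counting rows, at 1.03, brought it past 1. Leaving out a replicate was not possible. No paired analysis was possible because there was a single library per group and the labels number no replicates.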
